A study of Mus musculus with 8 samples.

Results

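The 10 genes described here encode the glucose transporter Slc2a1 and 9 enzymes of glycolysis, Hk1, Hk2, Gpi1, Pfkp, Aldoa, Tpi1, Pgk1, Eno1 and Ldha. They were taken by gene name from the 22878 gene rows present in every library, and each had 1 row. The genes were chosen with earlier results of these data known. The shares of all genes given below are therefore not a test of a set chosen blind. RNA-seq was carried out on 5 mouse lines, the ESC line R1 and the 4 iPSC lines 16-6, 32, T2 and S8, which are secondary iPSCs. There were 8 libraries, 2 for each of R1, 16-6 and 32 and 1 each for T2 and S8.

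R1 is an embryonic stem cell line. Epidermal cells (ectoderm) gave rise to S8 and cells of the stomach lining (endoderm) to T2. The other iPSC lines are mesodermal, 16-6 from hematopoietic cells and 32 from progenitors of adipocytes. The 4 iPSC lines came from somatic cells of 8-week-old all-iPSC mice. These mice were made by tetraploid complementation from an iPSC line in which doxycycline switches on Oct4, Sox2, c-Myc and Klf4, so all iPSC lines carry the same inducible transgenes, and colonies were picked after doxycycline had been withdrawn. All 5 lines were grown with LIF and serum on mitomycin C-treated feeder fibroblasts from embryos of ICR mice. Each tissue of origin is represented by a single line and ESCs by R1 alone, so an effect of cell type and an effect of line cannot be told apart. For S8 and T2, line and library cannot be told apart either. The study calls its replicates biological, and neither it nor the labels say whether the libraries came from separate cultures, so p-values measure only the spread between these libraries, which may be technical.

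Glycolysis turns glucose into pyruvate in the cytosol and yields ATP without oxygen. Glucose enters through a transporter and is trapped by hexokinase. Phosphofructokinase makes the committed step, aldolase and triosephosphate isomerase produce triose phosphates, and the lower steps through phosphoglycerate kinase and enolase yield ATP and lead to pyruvate, which lactate dehydrogenase can reduce to lactate. Pluripotent stem cells are known for high glycolytic activity. Several of the steps have isozymes encoded by different genes, and many glycolysis genes are known targets of the hypoxia-inducible factors and of Myc. The measurements here are of mRNA. They give neither enzyme amount nor flux.

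Levels are in FPKM, the number of fragments per kilobase of a transcript among 1000000 mapped ones, divided by 1 common constant for all libraries. Differences are on the scale of log2(FPKM + 1), with the standard error (SE) of a limma fit over all 13693 genes that reached 1 FPKM in any library. Adjusted p-values are from that fit, with Benjamini-Hochberg adjustment over all those genes, and a gene was called 2-fold when its adjusted p was below 0.05 and its log2 difference was at least 1 in size. All 10 genes passed the filter. In units of 1000000, 15.5 to 16.7 fragments per library were implied by the confidence limits of the deposited values. The study's read table nonetheless lists several times more reads for S8 and T2 than for the other libraries, and a smaller uniquely mapped share, so these libraries stand apart, and they are also those with the highest Eno1, Ldha and Slc16a3. The part of this in the results was not tested. For the 10 genes the limits implied between 527 (Hk1) and 30871 (Aldoa) fragments per library, which are estimates and not counts. All 10 pluripotent cell markers examined, Pou5f1, Sox2 and Nanog among them, were at 8.16 FPKM or more in every library. They also moved between lines, as did most genes tested. In 16-6 all 10 were lower than in R1 past the adjusted p, as were 29.9% of all genes. Their median log2 difference in 16-6 was -0.73, beside the lower glycolysis genes of that line. Their summed level was 2665 and 2726 FPKM there, against 4166 and 4533 in R1. In 32 there were 3 higher and 3 lower (28.6% and 32.9% of all genes). In S8 there were 3 higher and 4 lower (32.1% and 34.6%), and in T2 2 higher and 6 lower (27% and 30.9%). The counts in 32 and S8 are near these shares and are not read as a result about the markers. Their part in the results was not tested. The labels also name embryo as the tissue, while the samples are cell lines.

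Feeder cells are a source of RNA in such cultures. All 18 fibroblast markers examined were above 0 in every library. Their summed level was 1236 and 1267 FPKM in R1, 3487 and 3482 in 16-6, 264 and 256 in 32, 691 in S8 and 1006 in T2. Single markers did not share 1 order. By line mean 14 of the 18 were highest in 16-6 and 4 in R1 (Col3a1, Col6a1, Dcn and Lum), and 16 were lowest in 32 and 2 in R1 (Acta2 and Tagln). Dcn, which encodes the matrix proteoglycan decorin, was at 216.5 and 204.0 FPKM in R1, 32.9 and 33.3 in 16-6, 0.60 and 0.89 in 32, 11.08 in S8 and 11.02 in T2, and so was lower in every iPSC line, as several of the glycolysis genes were. The part of fibroblast RNA in the differences below was not tested, and in these bulk samples fewer cells of a type and less RNA per cell cannot be told apart.

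Most of the 10 genes were lower in the iPSC lines than in R1, and Pfkp and Hk1 stood out by size. In all 6 iPSC libraries Slc2a1, Hk1, Hk2, Pfkp, Tpi1 and Pgk1 were below both R1 libraries, 6 of 10 genes against 16.8% of all genes tested. The other 4 genes, Gpi1, Aldoa, Eno1 and Ldha, were below both R1 libraries in 16-6 and 32 but not in S8. The summed level of the 10 genes was 6839 and 7113 FPKM in R1, 5042 and 5114 in 16-6, 5266 and 5215 in 32, 7542 in S8 and 6277 in T2, a sum that the most abundant genes, Aldoa and Ldha, dominate.

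**Figure D1:**
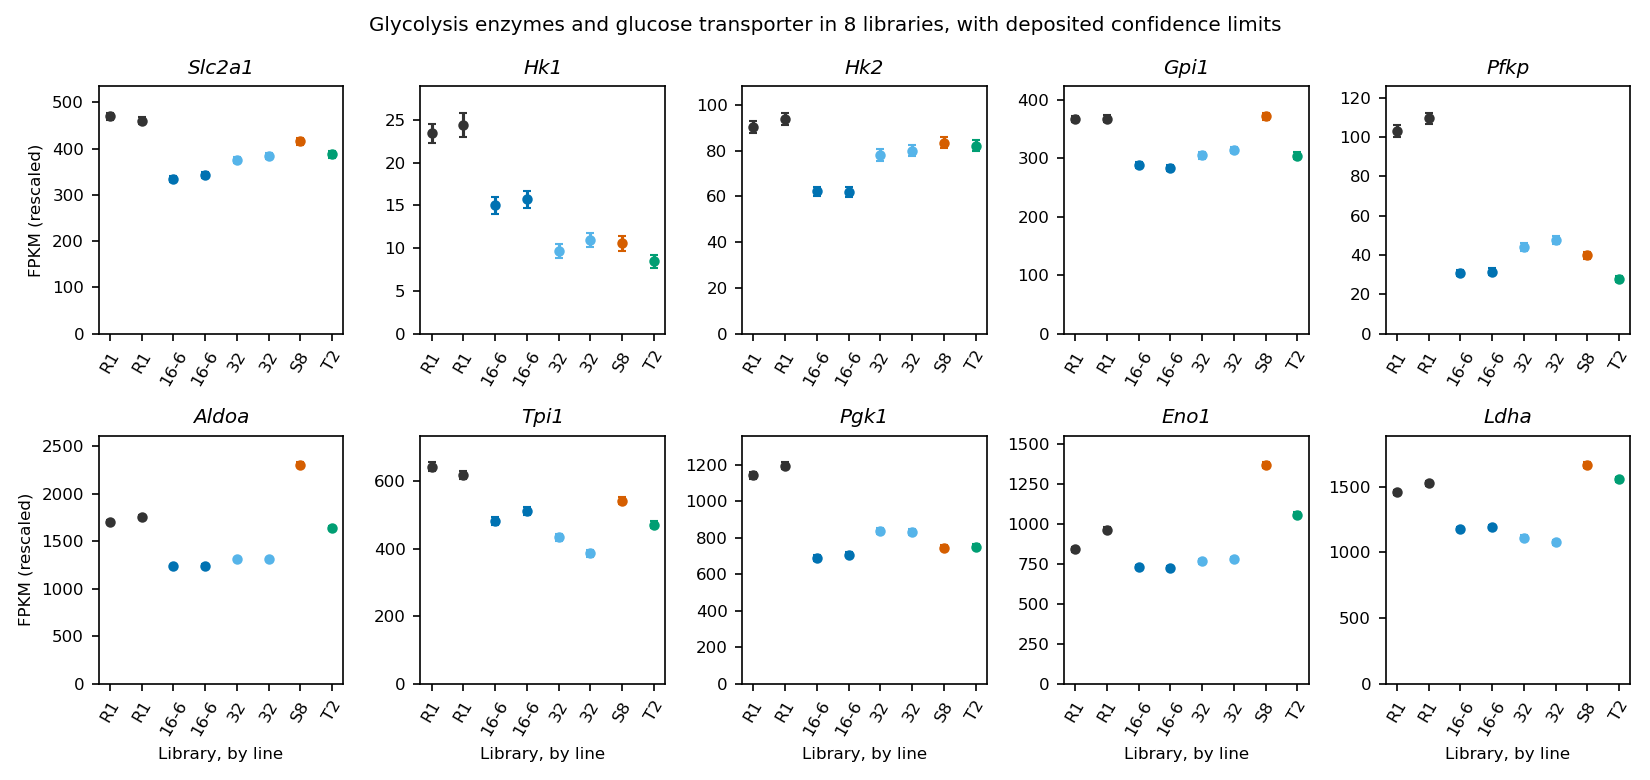
FPKM of the 10 genes in each of the 8 libraries, 1 panel per gene, with points coloured by line and bars for the deposited confidence limits (hidden by the point where narrow). The y axes start at 0 and differ between panels. R1 was the highest line for 6 genes and S8 for the other 4, and Pfkp ranged from 27.7 FPKM in T2 to 109.5 in R1.

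Glucose entry was represented by Slc2a1 (GLUT1, chr4:118781350-118809934 in mm9), the widely expressed transporter of basal glucose uptake. It was at 470.3 and 459.9 FPKM in R1, 333.8 and 342.3 in 16-6, 375.7 and 384.3 in 32, 415.5 in S8 and 387.8 in T2. R1 was highest and 16-6 lowest, no iPSC library reached an R1 library, and only the neighbours T2 and 32 had overlapping confidence limits. Against R1, Slc2a1 fell by 0.46 on the log2 scale in 16-6 (SE 0.039, adjusted p = 0.000745) and by 0.29 in 32 (adjusted p = 0.00248). The differences in T2 (log2 -0.26, adjusted p = 0.00776) and S8 (log2 -0.16, adjusted p = 0.0309) were smaller, and the call in S8 was lost without the first R1 library (adjusted p = 0.0728) and without either 16-6 library (0.0676 and 0.0664).

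The neuronal-type transporter Slc2a3 (GLUT3), which has a high affinity for glucose, was the second transporter of these cells. Its level was 367.6 and 391.9 FPKM in R1, 258.1 and 253.9 in 16-6, 293.5 and 278.5 in 32, 184.9 in S8 and 267.1 in T2. It was lowest in S8, the line in which Slc2a1 came closest to R1. In S8 its log2 difference from R1 was -1.03 (SE 0.061, adjusted p = 0.000184). Slc2a1 therefore made up 55.01% ± 1.5 (SD, n = 2) of the summed transporter FPKM in R1, 56.9% ± 0.73 in 16-6, 57.0% ± 1.3 in 32, 59.1% in T2 and 69.1% in S8. The insulin-responsive transporter Slc2a4 stayed under 1 FPKM in every library.

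Hexokinase phosphorylates glucose and keeps it in the cell. Hk1, the constitutive isozyme (chr10:61731603-61842656 in mm9), was at 23.4 and 24.4 FPKM in R1, 15 and 15.7 in 16-6, 9.67 and 10.98 in 32, 10.6 in S8 and 8.46 in T2. The R1 libraries were highest, those of 16-6 lay between, and 32, S8 and T2 were low, with overlapping limits between S8 and 32 and between 32 and T2. Relative to R1 Hk1 fell by 1.40 on the log2 scale in T2 (SE 0.088, adjusted p = 0.00041), by 1.14 in 32 (SE 0.072, adjusted p = 0.000255) and by 1.11 in S8 (SE 0.088, adjusted p = 0.000387), and these differences were called 2-fold. In 16-6 it fell by 0.61 (SE 0.072, adjusted p = 0.00194), and 16-6 was above 32 by 0.53 (SE 0.072, adjusted p = 0.00235).

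Hk2 (chr6:82675021-82724448 in mm9), the inducible isozyme that is abundant in muscle and in tumours, was the main hexokinase. It was at 90.4 and 94.1 FPKM in R1, 62.2 and 62.0 in 16-6, 78.0 and 80.1 in 32, 83.6 in S8 and 82.2 in T2. The order of the lines differed from that of Hk1, with 16-6 alone far below the others and with overlapping limits between S8 and T2 and between T2 and 32. Hk2 fell by 0.56 in 16-6 (SE 0.037, adjusted p = 0.000386) and by 0.22 in 32 (adjusted p = 0.00527). The log2 difference was -0.14 in S8 (adjusted p = 0.0416) and -0.16 in T2 (adjusted p = 0.0299), and both calls were lost without the second R1 library (0.0982 and 0.0727), without either 16-6 library (0.0860 and 0.0848 in S8, 0.0673 and 0.0664 in T2), and without the trend in eBayes (0.0804 in S8, 0.0598 in T2). That in S8 was also lost without either library of 32 (0.0573 and 0.0578) and with 1 FPKM required in every library (0.0558). The share of Hk1 in the summed FPKM of Hk1, Hk2 and Hk3 was 20.5% ± 0.054 (SD, n = 2) in R1 and 19.8% ± 0.56 in 16-6, and 11.5% ± 0.75 in 32, 11.2% in S8 and 9.30% in T2. Hk3 was under 1 FPKM throughout.

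Gpi1, glucose-6-phosphate isomerase (chr7:34986346-35015324 in mm9), was at 367.3 and 367.7 FPKM in R1, 288.2 and 284.3 in 16-6, 305.2 and 314.4 in 32, 372.3 in S8 and 304.8 in T2. S8 and R1 had overlapping limits at the top and 32 and T2 below them. Gpi1 fell by 0.36 in 16-6 (SE 0.037, adjusted p = 0.00125), by 0.25 in 32 (adjusted p = 0.00345) and by 0.27 in T2 (adjusted p = 0.00569). In S8 the log2 difference was 0.02 (adjusted p = 0.733), and it turned to -0.03 with median-ratio scaling and to -0.33 with quantile normalization, where it passed (adjusted p = 0.00309).

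Pfkp, the platelet-type phosphofructokinase (chr13:6579120-6647970 in mm9), changed most. It was at 103.3 and 109.5 FPKM in R1, 30.8 and 31.6 in 16-6, 44.2 and 47.6 in 32, 39.9 in S8 and 27.7 in T2. The groups did not overlap, and no neighbouring lines had overlapping confidence limits. Pfkp fell by 1.74 on the log2 scale in 16-6 (SE 0.054, adjusted p = 0.0001), by 1.20 in 32 (SE 0.054, adjusted p = 0.000103), by 1.39 in S8 (SE 0.066, adjusted p = 0.000124) and by 1.90 in T2 (SE 0.066, adjusted p = 0.000119). Summed fibroblast markers were highest in 16-6 and lowest in 32, and Pfkp was lower than R1 in both. By line mean 14 of the 18 markers were highest in 16-6 and 4, Dcn among them, in R1, where Pfkp was highest. The part of fibroblast RNA in the Pfkp difference was not tested. Line 16-6 was below 32 by 0.54 (SE 0.054, adjusted p = 0.000878).

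The other phosphofructokinases did not move with Pfkp in S8 and T2. Pfkl, the liver type, was at 96.3 and 105.4 FPKM in R1, 66.7 and 65.0 in 16-6, 66.3 and 67.9 in 32, 139.5 in S8 and 111.5 in T2. Its log2 difference from R1 was -0.61 in 16-6 (adjusted p = 0.000811), -0.58 in 32 (0.000755), 0.47 in S8 (0.00231) and 0.14 in T2 (0.113). Pfkm, the muscle type, was at 22.1 and 22.5 FPKM in R1 and 27.2 in S8, where it rose by 0.27 (adjusted p = 0.0198). Pfkp thus held 46.4% ± 0.34 (SD, n = 2) of the summed phosphofructokinase FPKM in R1, 27.99% ± 0.92 in 16-6, 36.4% ± 0.85 in 32, 19.3% in S8 and 17.0% in T2. The summed level of the 3 genes was 229.5 FPKM in R1, 111.5 in 16-6, 126.0 in 32, 206.6 in S8 and 162.6 in T2. The sum in 16-6 was near that in 32, while S8 with its higher Pfkl came close to R1.

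**Figure D2:**
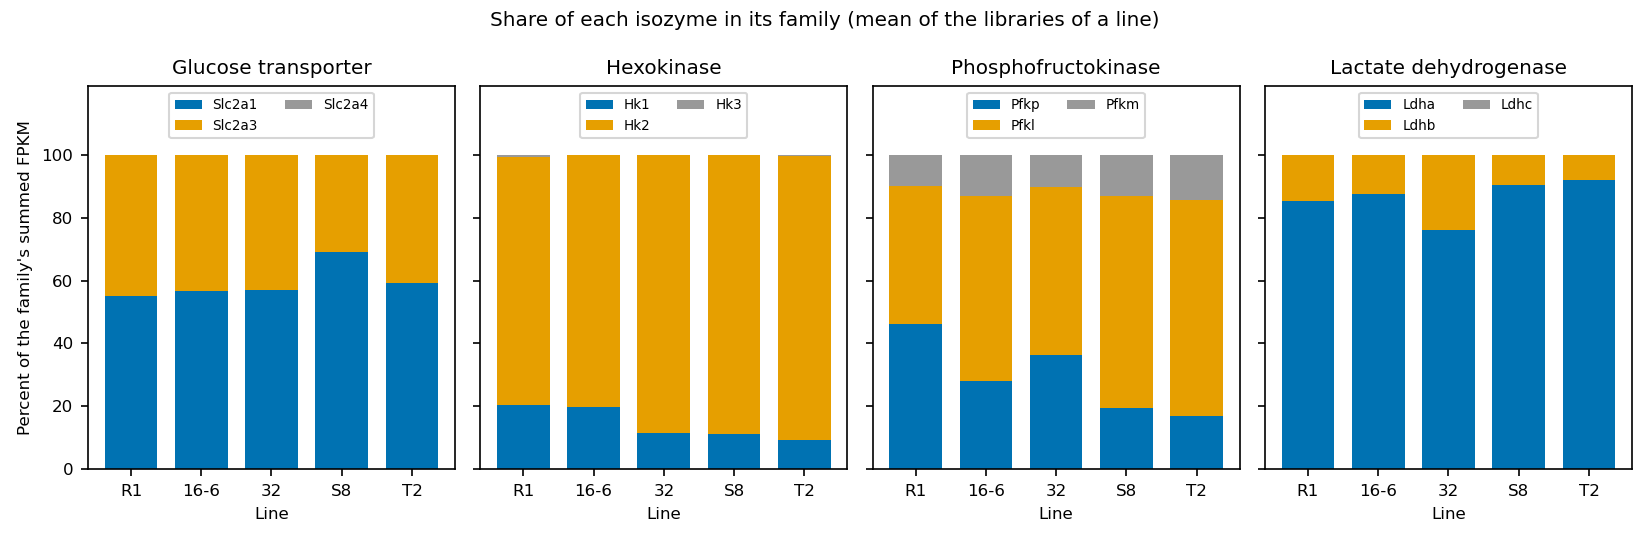
Stacked bars of the percent of each family's summed FPKM held by each gene in the 5 lines (mean of the libraries of a line), for glucose transporters, hexokinases, phosphofructokinases and lactate dehydrogenases. Pfkp fell from 46.4% in R1 to 17.0% in T2, Slc2a1 was highest at 69.1% in S8, and Ldhb was highest at 23.7% in 32.

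The shares are ratios within a library and so do not depend on the scaling between libraries. For Hk1, Pfkp, Slc2a1, Eno1 and the minor aldolase Aldoc, all 6 iPSC libraries lay on 1 side of both R1 libraries, and for Ldhb they did not. This is a description without a test, since R1 is 1 line and 4 of the 6 iPSC libraries are pairs from 2 lines. How often other shares lie on 1 side was not counted. The gap was narrow for Slc2a1, at most 56.08% in R1 and at least 56.13% in 32. It was also narrow for Hk1, at least 20.44% in R1 and at most 20.22% in 16-6. The mean share of Pfkp was 27.5% in the iPSC libraries and 46.4% in R1, a difference of -18.8 percentage points, and that of Hk1 was 13.9% and 20.5%, a difference of -6.61 points. For Hk1 the difference came from 32, S8 and T2, since 16-6 was near R1 at 19.8%.

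Promoter sequences are shown for Pfkp, Hk1 and Pgk1, lower in every iPSC line, and for Ldha, lower in 16-6 and 32 alone. The 4 were picked after their values were seen. Each line gives the 150 bases before a transcription start, 5′ to 3′, from the RefSeq annotation of GRCm38.p6, which is not the build of the expression files. Capitals mark ACGTG or GCGTG on either strand, the core that hypoxia-inducible factors recognise.
Pfkp, chr13:6648772-6648921, minus strand: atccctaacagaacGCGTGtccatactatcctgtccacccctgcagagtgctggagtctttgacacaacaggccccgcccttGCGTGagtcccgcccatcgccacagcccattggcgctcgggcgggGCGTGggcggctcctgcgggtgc
Hk1, chr10:62340422-62340571, minus strand: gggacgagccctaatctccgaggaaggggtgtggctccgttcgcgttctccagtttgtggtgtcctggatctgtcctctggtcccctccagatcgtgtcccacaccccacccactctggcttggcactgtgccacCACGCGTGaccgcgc
Pgk1, chrX:106186950-106187099, plus strand: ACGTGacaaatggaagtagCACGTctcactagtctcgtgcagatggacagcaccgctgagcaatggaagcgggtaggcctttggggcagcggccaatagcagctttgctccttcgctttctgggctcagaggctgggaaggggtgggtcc
Ldha, chr7:46845654-46845803, plus strand: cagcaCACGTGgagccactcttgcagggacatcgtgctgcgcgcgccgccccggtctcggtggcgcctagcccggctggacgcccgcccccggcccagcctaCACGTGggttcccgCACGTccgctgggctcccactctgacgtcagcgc
Within 250 bases before a start, ACGTG was found for 5 of the 10 genes (Slc2a1, Hk2, Aldoa, Pgk1 and Ldha) and for 18.5% of all genes, in 16.6% of all promoters. GCGTG was found for 5 (Slc2a1, Hk1, Pfkp, Eno1 and Ldha) and for 30.9% of all genes, in 28.2% of promoters. The E-box CACGTG, which contains ACGTG on both strands and which Myc recognises, was found for Ldha and for 6.9% of all genes. No match to these letters was found for Gpi1 and Tpi1. Hk1 and Ldha each have a further start that is not shown. That of Hk1 (chr10:62379909-62380058) held no ACGTG and no GCGTG within 250 bases. That of Ldha (chr7:46846932-46847081) held no ACGTG and 1 GCGTG. A match describes the letters of the window and is not evidence of binding.

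Aldolase splits fructose bisphosphate into triose phosphates. Aldoa (chr7:133938748-133943961 in mm9) was the most abundant of the 10 genes, at 1702 and 1754 FPKM in R1, 1236 and 1243 in 16-6, 1308 and 1308 in 32, 2302 in S8 and 1634 in T2. S8 was above both R1 libraries and every other line below them, and no neighbouring lines had overlapping limits. Aldoa fell by 0.48 in 16-6 (SE 0.050, adjusted p = 0.00134) and by 0.40 in 32 (SE 0.050, adjusted p = 0.00193), and it rose by 0.41 in S8 (SE 0.061, adjusted p = 0.00283). The rise in S8 was 0.004 under quantile normalization (adjusted p = 0.968). In T2 the log2 difference was -0.08 (adjusted p = 0.306). Aldoc, the brain-type aldolase, made up 1.58% ± 0.11 (SD, n = 2) of aldolase FPKM in R1 and 0.543% to 1.13% in the iPSC lines, from 28.7 and 26.9 FPKM in R1 to 7.04 and 6.86 in 16-6, a log2 difference of -1.86 (SE 0.073, adjusted p = 0.000129).

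Tpi1, triosephosphate isomerase (chr6:124760610-124764314 in mm9), was at 642.8 and 619.2 FPKM in R1, 482.5 and 510.9 in 16-6, 433.2 and 386.9 in 32, 542.8 in S8 and 471.0 in T2. It was 1 of only 2 members with 32 lowest, the other being Ldha, and 16-6 and T2 had overlapping limits. Tpi1 fell by 0.62 in 32 (SE 0.070, adjusted p = 0.00139), by 0.42 in T2 (SE 0.086, adjusted p = 0.011) and by 0.34 in 16-6 (SE 0.070, adjusted p = 0.0111). In S8 the log2 difference was -0.22 (SE 0.086, adjusted p = 0.0742). The call in 16-6 was lost without the first R1 library (adjusted p = 0.0578) and without the first 16-6 library (0.0667), while S8 passed at -0.55 with quantile normalization (0.00277), at -0.27 with median-ratio scaling (0.0458), with 1 FPKM required in every library (0.0496) and without either library of 32 (0.0419 and 0.0421).

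Pgk1, phosphoglycerate kinase (chrX:103382463-103399038 in mm9), makes the first ATP of the pathway. It was at 1144 and 1195 FPKM in R1, 689.1 and 708.2 in 16-6, 837.8 and 831.4 in 32, 745.5 in S8 and 751.2 in T2. All iPSC libraries were well below R1, and T2 and S8 had overlapping limits. After Pfkp and Hk1 it had the largest mean difference between iPSC lines and R1, having dropped by 0.63 on the log2 scale (SE 0.039, adjusted p = 0.000235). By line it fell by 0.74 in 16-6 (SE 0.047, adjusted p = 0.000357), by 0.49 in 32 (adjusted p = 0.000881), by 0.65 in S8 (adjusted p = 0.000535) and by 0.64 in T2 (adjusted p = 0.000963). Its germ-cell paralogue Pgk2 was listed at 0 in all libraries.

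Eno1, the ubiquitous enolase (chr4:149611306-149622982 in mm9), was at 838.1 and 961.7 FPKM in R1, 728.9 and 722.5 in 16-6, 763.9 and 777.1 in 32, 1365 in S8 and 1055 in T2. The R1 libraries differed more from each other than those of any other line, and S8 and T2 lay above both while 16-6 and 32 lay below both. Eno1 rose by 0.60 in S8 (SE 0.092, adjusted p = 0.00313) and fell by 0.31 in 16-6 (SE 0.075, adjusted p = 0.0206). The 16-6 call was lost without either 16-6 library (adjusted p = 0.0866 and 0.0969) and with no filter on low values (0.0604). The log2 difference was -0.22 in 32 (adjusted p = 0.0522) and 0.23 in T2 (adjusted p = 0.0822), and neither held its side of the threshold. In 32 Eno1 passed at -0.49 with quantile normalization (adjusted p = 0.00284), and also with median-ratio scaling (0.0246), with 1 FPKM required in every library (0.0335), with the 6 libraries of R1, 16-6 and 32 (0.0461) and without the first R1 library (0.011). In T2 it passed at 0.35 with quantile normalization (0.0157) and at 0.33 without the second R1 library (0.0139). Minor enolases moved apart. Eno2, the neuronal type, was at 5.83 and 6.52 FPKM in R1 and between 0.79 and 2.86 in the iPSC libraries, and Eno3, the muscle type, was at 5.27 and 5.42 in R1 and between 11.1 and 25.04 in the iPSC libraries. Eno3 rose against R1 by 1.49 in 16-6, 0.97 in 32, 2.04 in S8 and 1.21 in T2 (adjusted p = 0.000108, 0.00015, 6.51e-05 and 0.000253).

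Ldha, the lactate dehydrogenase subunit that favours lactate formation (chr7:54101174-54110997 in mm9), was at 1457 and 1527 FPKM in R1, 1175 and 1194 in 16-6, 1111 and 1074 in 32, 1665 in S8 and 1555 in T2. S8 and T2 were above both R1 libraries and 16-6 and 32 below both, and T2 and R1 had overlapping limits. Ldha fell by 0.45 in 32 (SE 0.053, adjusted p = 0.00166) and by 0.33 in 16-6 (SE 0.053, adjusted p = 0.00521). Its log2 difference was 0.16 in S8 (SE 0.065, adjusted p = 0.0836), which turned to -0.20 with quantile normalization, and 0.06 in T2 (SE 0.065, adjusted p = 0.469). Ldhb, the subunit that favours pyruvate formation, was at 252.3 and 253.0 FPKM in R1, 169.9 and 163.7 in 16-6, 334.5 and 346.7 in 32, 174.9 in S8 and 132.8 in T2. In 32 it rose by 0.43 (SE 0.039, adjusted p = 0.000748), and in T2 it fell by 0.92 (SE 0.048, adjusted p = 0.00026). Ldhb accounted for 14.5% ± 0.39 (SD, n = 2) of lactate dehydrogenase FPKM in R1, 12.3% ± 0.39 in 16-6, 23.7% ± 0.88 in 32, 9.50% in S8 and 7.87% in T2.

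Near-identical copies elsewhere in the genome bear on how exactly uniquely mapped reads count a gene. No copy with at least 90% identity over at least 50% of the mRNA was found for Slc2a1, Hk1, Hk2 and Pfkp. There was 1 for Gpi1, 2 each for Tpi1 and Pgk1, 5 for Aldoa, 6 for Eno1 and 7 for Ldha, with a highest identity of 92.6% (Aldoa) to 99.7% (Pgk1). The levels of these 6 genes are therefore uncertain. Gpi1, Aldoa, Eno1 and Ldha, which were not below R1 in S8, are among them, as are Tpi1 and Pgk1, which were. S8 and T2 also had the smaller uniquely mapped share. The part of the copies in the differences between lines was not tested.

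In the comparison of 16-6 with R1, 1 member, Pfkp, was called 2-fold, against 7.11% of all genes. Of the 10 members, 10 were lower past the adjusted p alone and 0 were higher, where 29.9% of all genes were lower and 25.7% higher. The members' median log2 difference was -0.47, and that of all genes -0.03. For 32, the members called were Pfkp and Hk1 (2 of 10, with 9.77% of all genes), 9 were lower past the adjusted p alone (32.9% of all genes) and 0 higher (28.6%). The median was -0.43 against -0.02 for all genes, and -0.73 under quantile normalization.

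For S8, Pfkp and Hk1 were again called (2 of 10, with 16.7% of all genes). By the adjusted p alone 5 members were lower, where 34.6% of all genes were, and 2 were higher, Aldoa and Eno1, where 32.1% of all genes were. The median was -0.15 against -0.03 for all genes, and -0.45 under quantile normalization, and the number lower was 3 without either 16-6 library. For T2, Pfkp and Hk1 were called (2 of 10, with 10.5% of all genes), 7 members were lower past the adjusted p alone (30.9% of all genes) and 0 higher (27% of all genes), and the median was -0.27 against -0.03. All 4 comparisons share the R1 libraries, so their counts are not independent of each other.

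**Figure D3:**
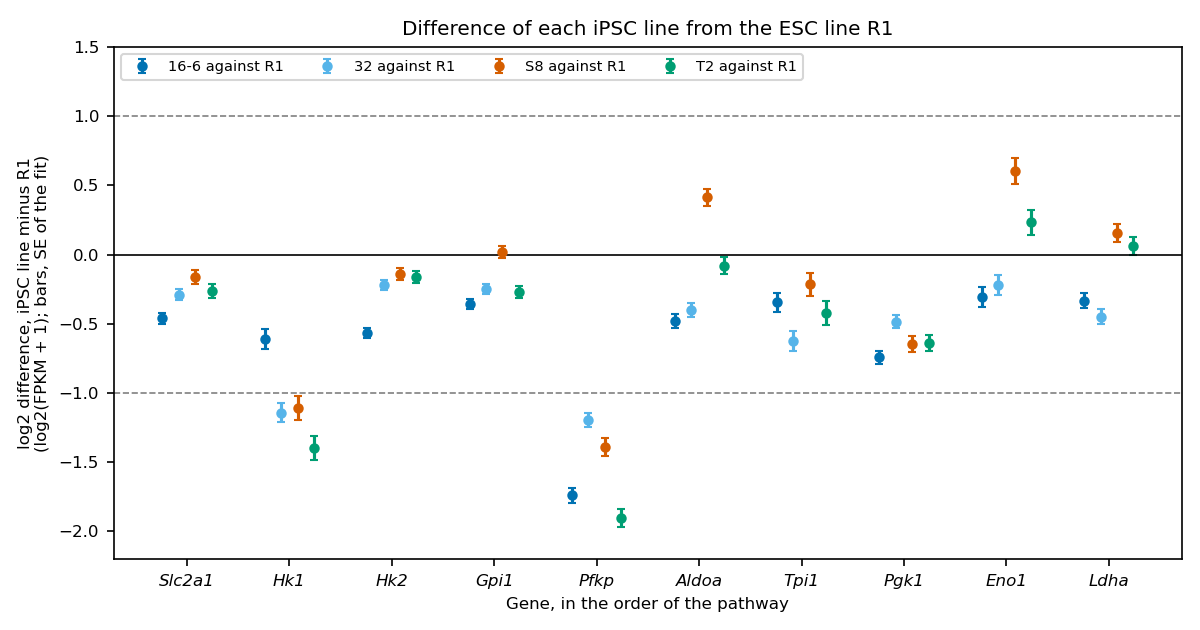
Log2 difference of each iPSC line from R1 for the 10 genes, in the order of the pathway, with the SE of the fit as bars and dashed lines at the 2-fold limits. Pfkp lay below the lower limit in all 4 lines and Hk1 in 32, S8 and T2, while Aldoa and Eno1 were above 0 in S8.

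When the 4 iPSC lines were averaged and set against R1, Pfkp (log2 -1.56, SE 0.045, adjusted p = 3.91e-05) and Hk1 (log2 -1.06, SE 0.059, adjusted p = 0.000184) were called, 2 of 10 members with 6.41% of all genes. By the adjusted p alone 9 members were lower (35.2% of all genes) and 0 higher (29.9%), with a median of -0.28 against -0.03 for all genes. Eno1 was the member that did not pass, at 0.08 (adjusted p = 0.32), and its sign turned under quantile normalization, without the first R1 library and with 16-6 and 32 as the only iPSC lines. The calls of Aldoa (log2 -0.14, adjusted p = 0.0344) and Ldha (log2 -0.14, adjusted p = 0.0386) were lost whichever single library of R1, 16-6 or 32 was left out.

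Lines 16-6 and 32, both of mesodermal origin, differed from each other in 7 of the 10 genes past the adjusted p alone, as did 60.4% of all genes. No member was called 2-fold (10.3% of all genes were). Hk1 (0.53) and Tpi1 (0.28) were higher in 16-6, 2 members where 27.5% of all genes were higher. Pfkp (log2 -0.54), Hk2 (-0.34), Pgk1 (-0.26), Slc2a1 (-0.17) and Gpi1 (-0.11) were lower in 16-6, 5 members where 32.9% of all genes were lower. The median of -0.10 (all genes, -0.06) became 0.11 under quantile normalization, with Slc2a1, Gpi1, Aldoa and Eno1 changing sign and Pgk1 at -0.01 (adjusted p = 0.807), and -0.01 with median-ratio scaling, with Aldoa and Eno1 changing sign and the calls of Slc2a1 (log2 -0.08, adjusted p = 0.166) and Gpi1 (log2 -0.02, adjusted p = 0.625) lost. Quantile normalization moved the median of all genes to -0.14. Hk1, Hk2 and Pfkp passed under every alternative tried, with the same sign. The calls of Slc2a1, Gpi1 and Tpi1 were lost without the first 16-6, the second 16-6 or the second 32 library, that of Pgk1 without the first 16-6 library (adjusted p = 0.0541), and that of Gpi1 also without any of the other 3 libraries of these lines and R1 (0.0542 to 0.0642).

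Across the 5 lines by the moderated F test, with a range of line means of at least 1 on the log2 scale, Pfkp (range 1.90, adjusted p = 7.85e-05) and Hk1 (range 1.40, adjusted p = 0.000356) were called, 2 of 10 members with 34.5% of all genes. All 10 passed the adjusted p alone, as did 12109 of all 13693 genes tested. The members' median range was 0.68, below the 0.82 of all genes.

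The remaining steps and isozymes of glycolysis were read from a list of 19 genes, of which 13 were tested. Of these, 9 were lower and 1 was higher than R1 in 16-6 past the adjusted p alone, 7 and 2 in 32, 4 and 4 in S8, and 6 and 1 in T2, with medians of -0.60, -0.22, -0.003 and -0.46. Among all genes 29.9%, 32.9%, 34.6% and 30.9% were lower and 25.7%, 28.6%, 32.1% and 27% higher in these lines, so the counts in S8 were near the background. Pkm (listed as Pkm2), pyruvate kinase, was at 3221 and 3253 FPKM in R1 and between 2559 and 3198 in the iPSC libraries. Pgam1, phosphoglycerate mutase, followed Aldoa in its order of lines, from 755.2 and 777.3 FPKM in R1 to 596.7 and 570.6 in 16-6 and 911.2 in S8, a log2 difference from R1 of 0.25 in S8 (SE 0.060, adjusted p = 0.0155) that turned to -0.12 with quantile normalization (adjusted p = 0.205). Gapdh, with 121 near-identical copies in the genome, was at 549.6 and 429.4 FPKM in the R1 libraries, between 344.8 and 564.3 in the iPSC libraries, and is uncertain.

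Of 14 tested genes that decide the fate of pyruvate and lactate, 2 rose and 6 fell in 16-6, 6 rose and 5 fell in 32, 3 rose and 6 fell in S8, and 4 rose and 6 fell in T2. These counts are small beside the shares of all genes, 25.7% higher and 29.9% lower in 16-6, 28.6% and 32.9% in 32, 32.1% and 34.6% in S8 and 27% and 30.9% in T2, and nothing is read from them. Slc16a3 (MCT4), the exporter of lactate in glycolytic cells, had the widest range. It was at 50.6 and 59.1 FPKM in R1, 39.6 and 37.5 in 16-6, 22.2 and 22.1 in 32, 169.8 in S8 and 149.6 in T2. Slc16a3 rose by 1.62 in S8 (SE 0.097, adjusted p = 0.000189) and by 1.44 in T2 (SE 0.097, adjusted p = 0.000489) and fell by 1.27 in 32 (SE 0.079, adjusted p = 0.000255). Its high lines, S8 and T2, were also those with the highest Ldha. Among the kinases that restrain pyruvate dehydrogenase, Pdk1 was at 91.0 and 93.9 FPKM in R1 and 41.5 and 41.7 in 16-6, a log2 difference of -1.13 (SE 0.066, adjusted p = 0.000296). Pdk2 and Pdk4 were under 6 FPKM in every library, and fell in all 4 iPSC lines, except that under quantile normalization the calls of Pdk2 in S8 (adjusted p = 0.0859) and of Pdk4 in 32 (0.226) were lost. Pdk4 was at 5.69 and 5.62 FPKM in R1 and 1.35 in S8.

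In the pentose phosphate branch, which leaves glycolysis after hexokinase, 8 genes were tested and 0 were called 2-fold against R1 in any line. Among all genes 7.11% were called in 16-6, 9.77% in 32, 16.7% in S8 and 10.5% in T2. Nothing is read from the 0. Past the adjusted p alone 4 rose and 2 fell in 16-6, 3 and 3 in 32, 4 and 1 in S8, and 2 and 2 in T2. The shares of all genes were 25.7% and 29.9% in 16-6 and 28.6% and 32.9% in 32. They were 32.1% and 34.6% in S8 and 27% and 30.9% in T2. The median of the branch was 0.01 in 16-6, 0.11 in 32, 0.27 in S8 and 0.06 in T2, above the members' median in each line. Rpe, ribulose-phosphate epimerase, had the widest range, from 24.3 FPKM in S8 to 51.2 in 32. Of 9 tested regulators and gluconeogenesis genes, 2 rose and 3 fell in 16-6, 1 and 4 in 32, 1 and 4 in S8, and 2 and 4 in T2, counts too small to set apart from the same shares of all genes. Pcx, pyruvate carboxylase, fell by 1.02 in 16-6 (SE 0.096, adjusted p = 0.001), and Pck2, the mitochondrial PEP carboxykinase, was higher in 16-6 than in 32 by 1.19 (SE 0.110, adjusted p = 0.000702).

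**Figure D4:**
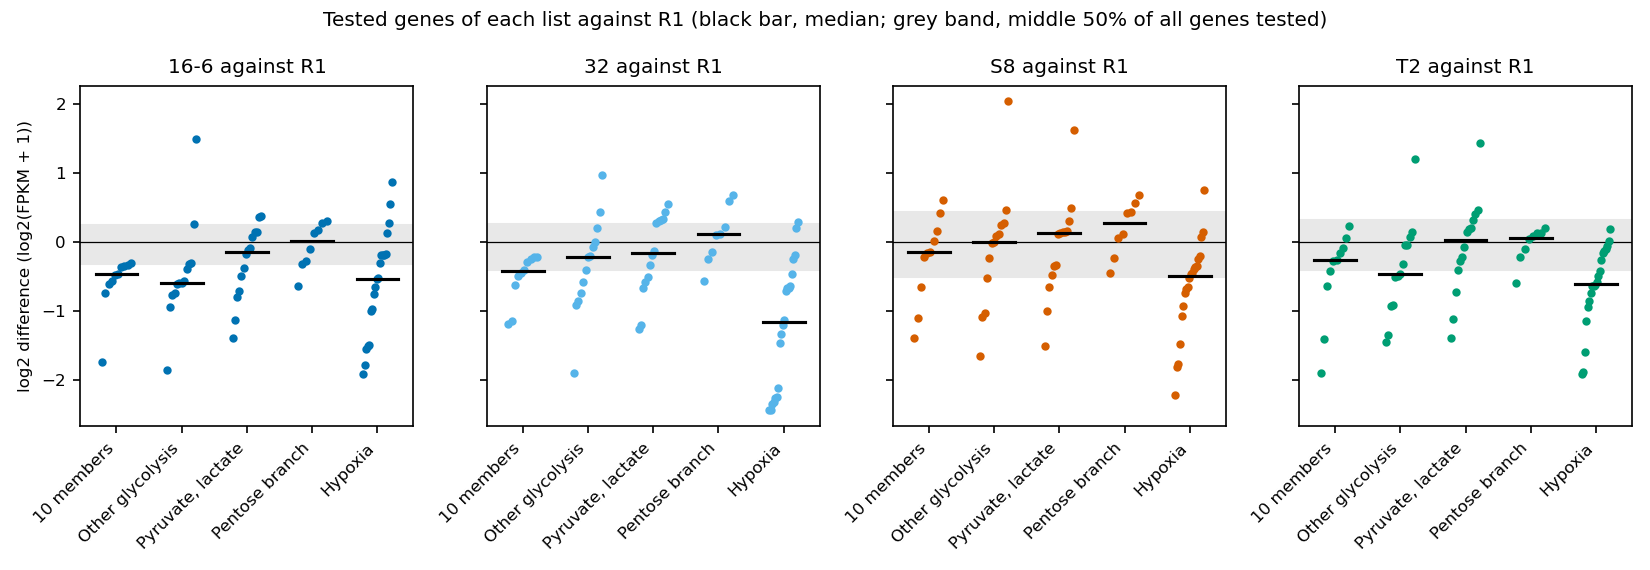
Log2 difference from R1 of every tested gene of 5 lists, 1 panel per iPSC line, with a black bar at each list's median and a grey band for the middle 50% of all genes tested. The median of the 10 members was -0.47 in 16-6, -0.43 in 32, -0.15 in S8 and -0.27 in T2, and that of the hypoxia list was lower in each of the 4 lines.

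The hypoxia-response genes were read from a list of 20, none of them a member and all tested. Past the adjusted p alone 14 were lower in 16-6 and 4 higher, 18 and 2 in 32, 17 and 1 in S8, and 14 and 1 in T2, with medians of -0.53, -1.16, -0.49 and -0.60. Among all genes 29.9% were lower and 25.7% higher in 16-6, 32.9% and 28.6% in 32, 34.6% and 32.1% in S8, and 30.9% and 27% in T2. Bnip3, a mitophagy receptor, was at 117.3 and 114.4 FPKM in R1, 38.9 and 38.9 in 16-6, 20.2 and 20.9 in 32, 122.5 in S8 and 96.9 in T2. Egln3, an oxygen-sensing hydroxylase, was at 14.7 and 18.7 FPKM in R1, between 2.67 and 3.90 in 16-6 and 32, 28.8 in S8 and 14.8 in T2. Both were low in 16-6 and 32 and near or above R1 in S8, where 17 of the 20 genes of the list were lower than R1. Vegfa, the vascular growth factor, differed in pattern, at 51.8 and 50.5 FPKM in R1, 62.7 and 62.1 in 16-6, 9.96 and 9.90 in 32, 10.2 in S8 and 13.2 in T2. Anxa2, an annexin that fibroblasts also express, was highest in 16-6 (285.8 and 298.5 FPKM) and lowest in 32 (32.4 and 25.4), the lines with the highest and lowest fibroblast markers. Hif1a itself lay between 59.4 FPKM in S8 and 89.1 in 32. The part of fibroblast RNA in this list, and of the hypoxia response in the members' differences, was not tested.

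Outside these lists, the genes most like the members were sought by Pearson correlation with the mean of the members' centred log2 values over the 8 libraries, among genes with a range of line means of at least 1. The 5 highest were Sema5b (r = 0.993), Lrmp (0.992), Pitpnc1 (0.988), Tsix (0.987) and Zfp819 (0.986). The 8 points share lines and libraries, so r describes likeness only. Zfp819 was at 19.0 FPKM in both R1 libraries, 4.38 and 4.24 in 16-6, 6.19 and 5.81 in 32, 9.16 in S8 and 5.44 in T2. Tsix lies antisense to Xist, and as no strand setting is given, reads of the pair cannot be told apart.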

How the data were processed

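RNA of 5 mouse lines was sequenced as poly(A)-selected paired reads. Reads had been aligned by the authors with TopHat 2.0.4 to mm9 (UCSC gene models), with unique matches retained, and the deposited FPKM came from Cufflinks (version 2.0.0 in the submitters' processing notes, which differs from the paper's, and options not given in the sources used here). The deposited FPKM summed to 1.14408e+10 to 1.60283e+10 per library, so every value was divided by 12725.7, which sets the median library total to 1000000. Counts were not used. Fragments were estimated from the confidence limits, taken as 2 SD of counting noise, and under that assumption cover counting error only. The assumption does not hold throughout. In R1, Hk1 had 1744 implied fragments at 23.44 FPKM and 1218 at 24.44 FPKM, so these numbers are not counts.

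Groups were taken from the sample titles. The 13693 genes that reached 1 FPKM in any library were fitted as log2(FPKM + 1) with limma 3.58.1 in R 4.3.3 (lmFit, eBayes with trend), all 8 libraries in 5 groups, with 3 residual degrees of freedom. The pseudocount understates changes of low genes. S8 and T2 are assumed to vary like the other lines. The fit was tested on simulated data. Coordinates of genes are those of the files, counted from 1. Copies were sought with minimap2 2.31-r1302 in the same build, and the remaining steps used Python 3.11.15. The 10 members and the lists were chosen with earlier results of these data known. All members, the tested isozymes, the 4 genes of widest range among those called in each other list, and the 5 genes most like the members could be named. Pou5f1, Sox2 and Hif1a were added after their values were seen. Col6a1, Acta2, Tagln and the untested isozymes Slc2a4, Hk3 and Pgk2 are also named outside this rule. Items withheld from the text are not reported here. Alternatives were pseudocount 0.1, 2 other filters, 2 other scalings, no trend, each replicate left out, 6 libraries and a replicate block.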

Additional observations from a re-analysis of the deposited data

Results flagged for a closer look

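Differences between lines in their effect against R1 drew attention to these genes. In 7 of the 10 members the difference of 16-6 from R1 was not the same as that of 32, by the limma test of 16-6 against 32 (adjusted p below 0.05, which 60.4% of all genes reached). The log2 differences of 16-6 against 32 were 0.53 for Hk1, -0.54 for Pfkp, -0.34 for Hk2, 0.28 for Tpi1, -0.26 for Pgk1, -0.17 for Slc2a1 and -0.11 for Gpi1. The count of members is near the share of all genes and is not read as a result about them. Under quantile normalization Slc2a1 (0.031) and Gpi1 (0.084) changed sign. The calls of Slc2a1, Gpi1, Tpi1 and Pgk1 were each lost when some single libraries were left out.

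In 4 members some lines lay above both R1 libraries and others below both. How many of all genes show such a pattern was not counted, so nothing is read from the number of members. Gpi1 entered by a small margin, at 372.3 FPKM in S8 and 367.7 in the higher R1 library, with overlapping limits. The widest distance between lines on the log2 scale was 0.91 for Eno1 and 0.89 for Aldoa, between S8 and 16-6, then 0.61 for Ldha, between S8 and 32, and 0.38 for Gpi1, between S8 and 16-6. The difference between those lines was not tested, S8 had 1 library, and for Gpi1 and Ldha the sign of the S8 difference turned under another scaling.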

How the results depend on the processing

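The 2-fold calls against R1 were those of Pfkp in every iPSC line and of Hk1 in 32, S8 and T2. They were made under every alternative that included the line, and those with 6 libraries left out S8 and T2. Hk1 in 16-6 (log2 -0.61) was not called 2-fold in the main fit. With 16-6 and 32 as the only iPSC lines (6 libraries, an alternative chosen after seeing the data for the mean of the iPSC lines), the mean against R1 had 1 member called, a median of -0.42 and Eno1 at -0.26. The replicate block on the same 6 libraries gave the same count of 1, the same median of -0.42 and Eno1 at -0.26, and of the members' other calls it ended that of Gpi1 in 16-6 against 32 (adjusted p = 0.0843). The numbers do not pair the samples, since the replicate differences of the lines correlated at -0.097, 0.001 and 0.028 across genes.

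Quantile normalization moved the members' median to -0.51 in 16-6, -0.73 in 32, -0.45 in S8, -0.33 in T2 and -0.43 in the mean of the iPSC lines, each against R1, and reversed it to 0.11 in 16-6 against 32. Under it 1 member was higher in S8 and 1 in T2, and 4 were higher and 2 lower in 16-6 against 32. Signs turned for Gpi1 (-0.33) and Ldha (-0.20) in S8, Eno1 (-0.042) in the mean, and Slc2a1 (0.031), Gpi1 (0.084), Aldoa (0.23) and Eno1 (0.14) in 16-6 against 32. Median-ratio scaling gave medians of -0.40 in 16-6, -0.20 in S8, -0.29 in T2 and -0.009 in 16-6 against 32, with 3 members lower in the last, and turned Gpi1 in S8 (-0.035) and Aldoa (0.014) and Eno1 (0.004) in 16-6 against 32. The cause of these shifts was not tested. With no filter on low values 1 member was higher in 16-6 than in 32.

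Leaving out 1 library at a time gave 3 to 5 members lower in S8, 0 to 1 higher in T2 and in the mean, and 1 to 2 higher and 2 to 4 lower in 16-6 against 32, and Eno1 in the mean from -0.022 (without the first R1 library) to 0.177 (without the second). Of 800 values of single members under the alternatives, 716 kept their direction and side of the threshold, 56 lost the call, 15 gained it and 13 changed sign. S8 and T2 rest on 1 library each, and 3 residual degrees of freedom carry every test. Hk1 had the widest confidence limits, up to 8.63% of its level on each side. Its low fragment number is computed from these limits and is the same information.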
